A study of Mus musculus with 4 samples.

Results

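The mast-like cells were cell barcodes chosen by their own counts, those in which the transcripts of 3 mast cell protease genes, Cma1, Mcpt4 and Tpsb2, made up at least 0.2% of all unique molecular identifiers (UMIs, 1 per captured RNA molecule). Barcodes also needed at least 1000 detected genes and at most 10% of UMIs from mitochondrial genes. Of 22916 barcodes that met the last 2 conditions in 4 libraries, 628 were mast-like, and 626 of these lay in the Mll4-labelled library. The series compared mouse bone marrow of 4 genotypes, control, Mll3 deleted, Mll4 deleted and Mll3/4 deleted, with 1 library each. In every library the cells were donor-derived (CD45.2+), lineage negative, Sca1+ and Kit+ (LSK, a gate for blood stem cells and early progenitors), taken 10 weeks after transplantation, and tagged with barcoded antibodies to 6 surface proteins. The labels did not give the deleting Cre line, the number of mice per library, or their age beyond the time since transplantation. Kmt2d, the gene of Mll4, was at 22.6 counts per 1000000 UMIs (CPM) (95% interval 21.7 to 23.4) in the Mll4-labelled library and at 24.6 (23.7 to 25.5) in the control. Counts at the 3' end do not show whether another stretch of a gene was removed, so libraries are named by their labels.

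Mast cells are tissue-resident immune cells that arise from bone marrow progenitors and mature under Kit signalling. They store histamine, heparin-bound proteases and other mediators in granules and release them when antigen cross-links IgE on the high-affinity IgE receptor. In mice, the mast cells of skin and peritoneum (connective tissue type) carry Cma1, Mcpt4, Tpsb2, Cpa3 and the receptor Mrgprb2, while mucosal mast cells carry Mcpt1 and Mcpt2.

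The promoters of 4 genes that the results turn on are shown, from 250 bases before the start site, 5′ to 3′, from RefSeq (GRCm38.p6). Capitals mark words of GATA factors (AGATAA or TGATAA, either strand) and E-box words of the MITF type (CACGTG or CATGTG, either strand). The set shows a chymase gene used for the choice of cells, the neighbouring Mcpt4, the carboxypeptidase gene Cpa3 and the IgE receptor gene Fcer1a.
Cma1 (chr14:55944676-55944925, minus strand): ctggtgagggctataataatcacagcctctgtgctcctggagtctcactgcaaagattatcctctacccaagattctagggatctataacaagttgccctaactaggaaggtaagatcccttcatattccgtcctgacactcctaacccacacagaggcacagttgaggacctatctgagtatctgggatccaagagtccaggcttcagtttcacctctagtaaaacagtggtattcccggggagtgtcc
Mcpt4 (chr14:56062311-56062560, minus strand): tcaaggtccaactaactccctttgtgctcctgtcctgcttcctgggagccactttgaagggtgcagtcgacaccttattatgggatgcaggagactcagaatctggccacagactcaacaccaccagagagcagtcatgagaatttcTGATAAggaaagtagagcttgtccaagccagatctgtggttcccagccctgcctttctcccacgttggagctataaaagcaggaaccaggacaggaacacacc
Cpa3 (chr3:20242182-20242431, minus strand): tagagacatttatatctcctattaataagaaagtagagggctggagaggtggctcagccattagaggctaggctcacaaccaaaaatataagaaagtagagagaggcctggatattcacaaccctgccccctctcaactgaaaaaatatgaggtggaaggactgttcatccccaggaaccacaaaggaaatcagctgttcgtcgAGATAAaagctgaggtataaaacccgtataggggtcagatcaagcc
Fcer1a (chr1:173227230-173227479, minus strand): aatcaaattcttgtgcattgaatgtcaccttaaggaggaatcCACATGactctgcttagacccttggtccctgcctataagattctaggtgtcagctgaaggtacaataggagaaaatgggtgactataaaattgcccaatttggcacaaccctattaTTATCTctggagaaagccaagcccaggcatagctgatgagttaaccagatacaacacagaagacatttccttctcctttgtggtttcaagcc
The GATA word lay 103 bases before the start of Mcpt4, 46 before that of Cpa3 and 92 before that of Fcer1a. Fcer1a also held an E-box word 208 bases before its start, and the Cma1 window held neither word. The listed mast cell genes at least 4-fold higher in the mast-like cells numbered 46, with the 3 genes that chose the cells included. Of the 46, 36 had a promoter in the table. Among these, 15 (41.7%) held a GATA word, against 16.99% of all 27025 promoters in the table, and 5 (13.9%) held an E-box word, against 17.6%. These matches describe letters in a window and not bound sites.

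The mast-like cells made up 13.1% of the 4793 kept Mll4-labelled barcodes (exact binomial 95% interval 12.12 to 14.05). All intervals given here cover counting error only, since 1 library per genotype leaves no replicate error, and no test was run. In the control, 1 of 7274 kept barcodes was mast-like (0.0137%), in the Mll3-labelled library 1 of 6101 (0.0164%), and in the Mll3/4-labelled library 0 of 4748, which allows a share of up to 0.0632% (3 counts of the total). The control cell held 18 Cma1, 18 Mcpt4, 9 Kit, 25 Cpa3 and 11 Fcer1a UMIs. The Mll3-labelled cell held 24 Cma1, 53 Cpa3 and 4 Fcer1a UMIs and 0 of Kit. Neither barcode occurred in the Mll4-labelled library. Of the Mll4-labelled barcodes, 22, 16 and 18 also occurred in the control, Mll3-labelled and Mll3/4-labelled libraries.

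The threshold did not fall in a gap. The highest share of a kept Mll4-labelled barcode outside it was 0.1998%, and the lowest inside was 0.202%. In the Mll4-labelled library, 33 barcodes had a share between 0.1% and 0.2% and 54 had a share between 0.2% and 0.4%. The median share among mast-like cells was 1.88%, and shares ran from 0.202% to 13.6%. These values chose the cells and are a description only.

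The mast-like cells were shallow beside the other 4167 Mll4-labelled cells. Their median was 5407.5 UMIs (1891 to 91848) and 2171 genes, against 24627 UMIs and 4739 genes. Their median antibody count was not lower, at 2804.5 against 2322. Less RNA per cell and weaker capture cannot be told apart here.

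Cma1, a chymase, was detected in 626 of 626 mast-like cells, with a median of 69 UMIs. Mcpt4, a second chymase, was detected in 331 (52.9%) and Tpsb2, a tryptase, in 386 (61.7%). All 3 genes were present in 245 cells, 2 of them in 227 and 1 in 154. Kit, the receptor of stem cell factor, had a UMI in 625 of 626 cells, against 79.3% of the other Mll4-labelled cells, which were deeper. Every library was sorted as Kit+ and the other 3 markers made the rule, so detection of these markers is no separate check of the label.

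UMIs were summed over the mast-like cells (5306103) and over the other Mll4-labelled cells (115394240), and 6877 genes reached 20 CPM in 1 of both sums. Of these, 344 (5%) were at least 4-fold higher in mast-like cells and 79 (1.15%) at least 4-fold lower. Over the 6877 genes the log2 ratio had a median of 0.12. Because the same transcripts chose the cells, these ratios are descriptions and nothing is read from the shares. The balance of both directions moved with the scaling: the counts were 297 higher and 124 lower with TMM factors, 310 and 121 with median-of-ratios scaling, and 335 and 155 with totals that left out mitochondrial and ribosomal protein genes. TMM factors moved the median of all genes to -0.07.

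Of the 120 genes listed for mast cells by role other than the 3 of the rule, 88 reached 20 CPM, 43 of these were at least 4-fold higher and 0 were 4-fold lower. Their median log2 ratio was 1.89. The plot of mast cell genes by role shows medians above 4-fold for proteases, receptors and mediator genes. Signalling genes had a median of 0.83 and a wide range, from -1.09 to 7.30, and lysosomal genes had a median of 0.48 and ran from -1.25 to 2.72.

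**Figure D1:**
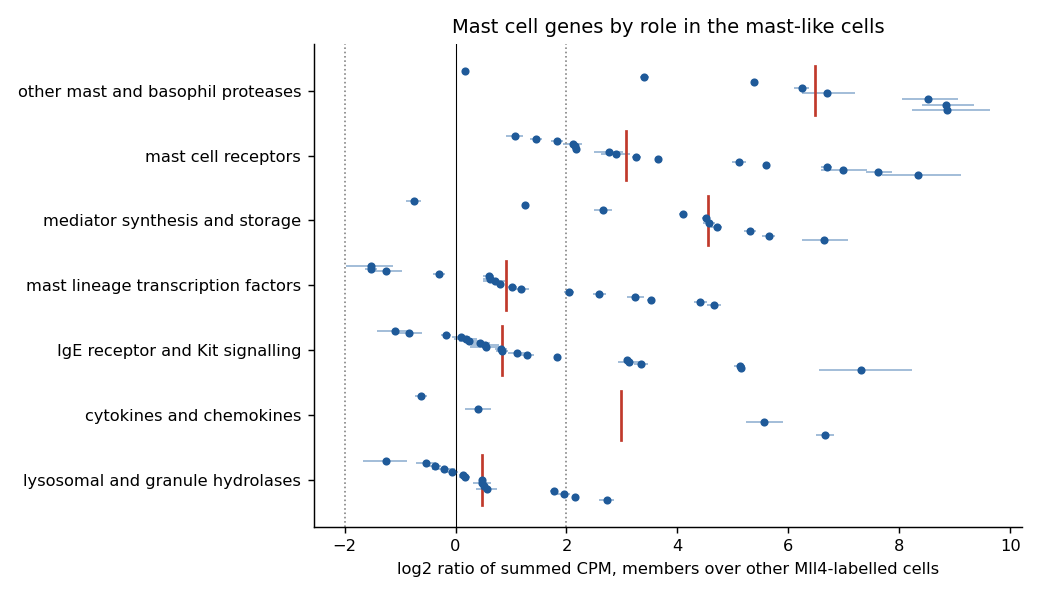
Each point is 1 gene at 20 CPM or more, placed by the log2 ratio of its summed CPM in mast-like cells over the other Mll4-labelled cells, with its 95% counting interval. Red lines are list medians and dotted lines mark 4-fold. The median was 6.47 for other proteases, 3.07 for receptors, 4.54 for mediator genes and 0.48 for lysosomal genes.

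Among the other proteases, 7 of 8 genes at 20 CPM were at least 4-fold higher. Cpa3, the mast cell carboxypeptidase, was at 11302 CPM in mast-like cells, 272 in the other Mll4-labelled cells and 14.97 in control cells (log2 ratio 5.38, interval 5.36 to 5.40). Gzmb, a granzyme, was at 375 against 4.96 CPM (6.24). Tpsg1, a membrane-anchored tryptase, was at 119 against 0.321 CPM (8.52). Ctsg, the cathepsin G gene shared with myeloid progenitors, was at 2022 against 1796 CPM (0.17). It was at 156 CPM in control cells and at 142 in the other Mll4-labelled cells within the UMI range of the mast-like cells (3.83).

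Cma1, Mcpt1, Mcpt2, Mcpt4, Mcpt8, Ctsg and Gzmb are neighbours on chromosome 14, within 15 genes from 55941451 to 56262260 (GRCm38, GENCODE). Expression there was uneven. Mcpt9, Gzme, Gzmd, Gzmg, Gzmn, Gzmf and Gzmc had 0 UMIs in mast-like cells. The mucosal genes rested on few cells: Mcpt1 had 415 UMIs, of which 399 lay in 1 cell, and Mcpt2 had 875, of which 371 lay in 1 cell. In both cases that cell had 12966 UMIs in all, and Mcpt2 was seen in 77 cells. Near-identical copies among these proteases can share reads, so levels of single Mcpt and tryptase genes are uncertain.

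Of 16 receptor genes at 20 CPM, 13 were at least 4-fold higher. Kit was at 3001 CPM against 240.5 in the other Mll4-labelled cells 215 in the control, 216 in the Mll3-labelled and 245.5 in the Mll3/4-labelled library (log2 ratio to the other Mll4-labelled cells 3.64, interval 3.61 to 3.67). Fcer1a, the IgE-binding chain, was at 832 against 8.06 CPM (6.69), and Ms4a2, the beta chain of the same receptor, at 244 against 7.07 (5.11). Il1rl1, a receptor of the interleukin 1 family, was at 1504 against 31.0 CPM (5.60).

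Ly6a, the gene of the Sca1 antigen used in the sort, was at 438 against 104 CPM (2.07), but at 343 in the other Mll4-labelled cells of the same UMI range (0.35). Mrgprb2, a receptor for basic secretagogues found on connective tissue mast cells, was at 291 against 1.47 CPM (7.62) and had 0 UMIs in control cells. Cells were also thinned to 3000 UMIs each, which left out 67 of the 626 and 67 of the 4167, to compare shares of cells at 1 depth. Fcer1a then had a UMI in 81.6% of 559 mast-like cells (exact interval 78.1 to 84.7), 2.32% of 4100 other cells and 0.303% of 7259 control cells. Mrgprb2 had one in 56.0%, 0.780% and 0% of the same cells.

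Genes of mediator synthesis and storage were 4-fold higher in 8 of 10 cases. Hdc, which makes histamine, was at 626 against 27.4 CPM (log2 ratio 4.51), and Slc18a2, which loads monoamines into vesicles, at 459 against 26.8 (4.10). Ndst2, needed for heparin sulfation, was at 281 against 11.8 CPM (4.58). Hpgds, the prostaglandin D synthase, was at 324 against 12.4 CPM (4.71), and Alox5, of leukotriene synthesis, at 363 against 7.26 (5.64).

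Alox5ap, the protein that presents substrate to Alox5, was lower at 87.3 against 147 CPM (-0.75). Srgn, the core protein of granule proteoglycans, was at 2308 against 973 CPM (1.25). Of 4 cytokine genes at 20 CPM, 2 were 4-fold higher: the chemokine Ccl2 at 361 against 3.58 CPM (6.66) and Il6 at 45.4 against 0.962 (5.56).

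Of 16 transcription factor genes, 6 were 4-fold higher. Gata2 was at 632 against 55.2 CPM (log2 ratio 3.52), Mitf at 219 against 10.3 (4.41) and Hes1, a Notch target, at 209 against 8.22 (4.67). Lmo2, a stem and erythroid factor, was lower at 121 against 348 CPM (-1.52). Of 20 genes of IgE receptor and Kit signalling, 6 were 4-fold higher, among them the adaptor Lat2 at 841 against 23.8 CPM (5.14), the granule transport gene Rab27b at 372 against 10.7 (5.12) and the phosphatase Inpp5d at 618 against 72.4 (3.09). Syk, the kinase of the receptor, was at 135 against 76.3 CPM (0.82), and the direction turned against the other cells of the same UMI range, at 201 CPM (-0.57).

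Outside the lists, the largest ratios among genes at 100 CPM included Mlph, a melanosome and granule transport linker, at 137 against 1.09 CPM (log2 ratio 6.96), Slc45a3 at 240 against 2.24 (6.74), Rprm at 163 against 1.59 (6.68), Smarca1 at 118 against 1.17 (6.65), Atp8b5 at 464 against 5.07 (6.51), Sytl3 at 108 against 1.47 (6.19), Gcsam at 250 against 3.81 (6.03) and Gnaz at 116 against 1.77 (6.03).

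Markers of other cell types gave a mixed picture. For basophils, 3 of 4 genes were 4-fold higher, with Mcpt8, the basophil protease, at 341 against 32.3 CPM (log2 ratio 3.40) and Cd200r3 at 221 against 7.93 (4.80). The remaining gene, Clec12a, was lower at 126 against 256 CPM (-1.03). Mcpt8 was at 0 UMIs in 466 of the 626 cells, at 1 to 9 in 119 and at 10 or more in 41. Only 4 of 10 stem cell genes and 2 of 8 eosinophil genes reached 20 CPM. None of these 6 passed 4-fold in either direction, and the medians were -1.23 and -0.10.

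Of 6 neutrophil genes, 4 were at least 4-fold lower in the sums, and single cells carried much of what was left. Chil3, a chitinase-like gene of myeloid cells, had the lowest ratio among genes that reached 100 CPM in 1 of both sums, with the gene classes named in the processing left out, at 15.6 against 160 CPM (log2 ratio -3.35). S100a8 was at 415 against 2379 CPM (-2.52), yet 66.6% of its UMIs in mast-like cells came from 1 cell, and without that cell the log2 ratio was -4.09. For Camp, 78.7% came from 1 cell (-2.32 with it, -4.54 without it). Pf4, a platelet gene, was at 152 against 34.3 CPM (2.15), with 87% of its UMIs in 1 cell and detection in 27 cells. Without that cell the log2 ratio of Pf4 was -0.81. The other megakaryocyte gene that reached the CPM minimum, Itga2b, was also 4-fold higher but did not rest on 1 cell. It was at 212 against 13.8 CPM (3.94), with detection in 450 cells and 2.49% of its UMIs in the highest cell. In the other Mll4-labelled cells of the same UMI range Itga2b was at 9.71 CPM (4.44). Against other Mll4-labelled cells of the same UMI range, the neutrophil list had a median of 0.37, with Camp at 0.36 and S100a8 at -0.19. Against control cells the list median was 0.70, with S100a8 at 0.82 and S100a9 at 0.59. Both of these comparisons kept all mast-like cells. The cell with most S100a8 and Camp UMIs had 46215 UMIs in all, above the UMI range, and held 78.8% of the S100a9 UMIs. The ratios without it were not computed there.

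The other Mll4-labelled cells were not 1 kind of cell, and 1255 of them had a UMI total between the 10th and 90th percentile of the mast-like cells (2975 to 15520.5). Of the 43 mast cell genes past 4-fold, 33 were past it against these cells too, 8 were higher by less and 2, Fcer1g and Id2, were lower. The 43 had been picked by the main comparison. Over all genes tested against these cells, 230 of 6912 were 4-fold higher and 196 were 4-fold lower. The mast lists had a median log2 ratio of 0.90 there, against 1.89 in the main comparison. In the sums the mitosis genes changed sides. These sums kept all 626 mast-like cells, up to 91848 UMIs, and only the other cells were held to the range. Kit was at 323 CPM in the 1255 cells (log2 ratio 3.21), Cpa3 at 681 (4.05), Fcer1a at 26.7 (4.96) and Hdc at 14.4 (5.43). Fcer1g, the signalling chain of the IgE receptor that other myeloid cells share, was at 1610 against 1355 CPM (-0.25), and Id2 at 366 against 244 (-0.58).

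The 1255 cells held summed levels of 10700 CPM for the monocyte and macrophage list and 14166 for the dendritic list, against 2812 and 3742 in mast-like cells. Of 10 monocyte and macrophage genes, 1, Cx3cr1, was 4-fold higher than in all other Mll4-labelled cells (log2 ratio 3.24). It was at 415 CPM, against 236 in the 1255 cells (0.81). After thinning to 3000 UMIs it was seen in 63.5% of mast-like, 14.7% of other Mll4-labelled and 0.344% of control cells. Cdk1, a mitotic kinase, was at 23.2 CPM in mast-like cells, 106.5 in all other cells (-2.19) and 10.3 in the 1255 cells (1.18). After thinning to 3000 UMIs, 5.72% of 559 mast-like cells (3.95 to 7.99) had at least 3 UMIs of 16 G2 and mitosis genes, against 35.3% of 4100 other cells and 32.9% of 7259 control cells. Among the other cells in the same UMI range the share was 4.39% (3.32 to 5.67), and that interval overlaps the one of the mast-like cells.

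**Figure D2:**
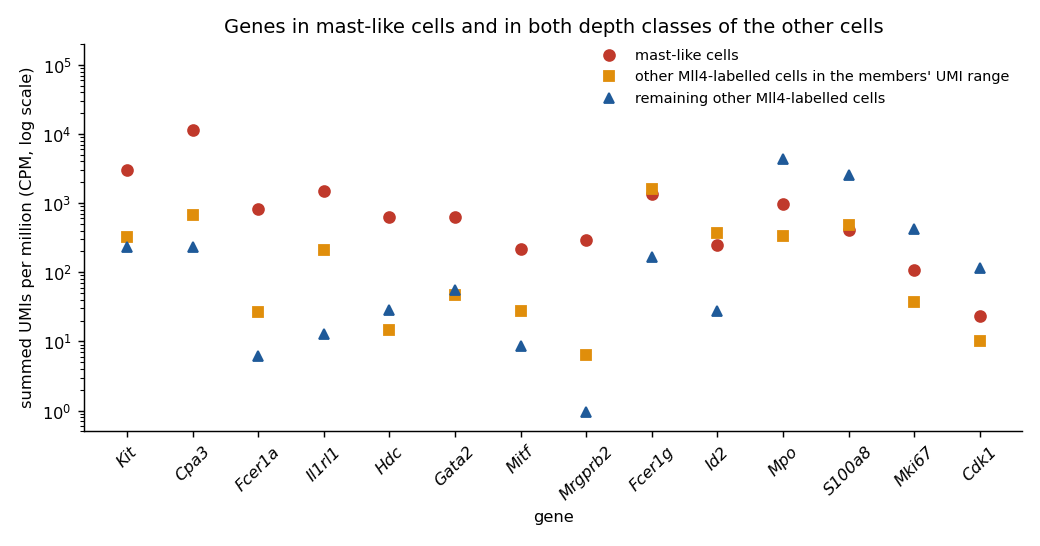
Summed CPM (log axis) of 14 genes in mast-like cells (circles), in other Mll4-labelled cells within their UMI range (squares) and in the remaining other cells (triangles). Kit, Cpa3 and Fcer1a are highest in mast-like cells, while Mki67 and Cdk1 lie between both classes of other cells.

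The antibody counts were not used to choose the cells. CD117, the Kit protein, had a median of 869 counts per mast-like cell (10th to 90th percentile 349.5 to 1638), 148 in the other Mll4-labelled cells (57.6 to 364.4) and 217 in control cells (99 to 398). The median was 408 in the Mll3-labelled library (124 to 791) and 498 in the Mll3/4-labelled library (199 to 1083.3). Centred within each cell (natural log), the Mll3/4-labelled median was 2.15, above the 1.82 of mast-like cells. Of the 626 cells, 559 (89.3%) lay above the 90th percentile of the other Mll4-labelled cells. The mast-like median was 5.87 times that of the other Mll4-labelled cells, and both groups overlapped little.

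CD34, a progenitor antigen, had medians of 236 and 80, and 222 mast-like cells (35.5%) lay above the same percentile. CD48 had medians of 1555 and 1943 counts, with a narrower range in mast-like cells (860.5 to 3270.5 against 141 to 4579.4). CD201, the stem cell antigen made from Procr, had medians of 19 and 32, and 167 cells (26.7%) lay below the 10th percentile. CD135 had medians of 36.5 and 18, and CD150 of 28 and 19. On the scale centred within each cell (natural log), CD150 was lower in mast-like cells, with medians of -1.54 and -1.33. CD135 was nearly level on that scale, at -1.33 in mast-like and -1.38 in other Mll4-labelled cells. The mRNA was higher with the protein counts for Kit and for Cd34, which was at 459 against 187 CPM (1.30). For Flt3, the gene of CD135, the mRNA was lower where the raw counts were higher, at 9.42 against 33.1 CPM (-1.80). The same held for Slamf1, the gene of CD150, at 1.32 against 5.74 CPM (-2.02, on 7 UMIs in mast-like cells).

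**Figure D3:**
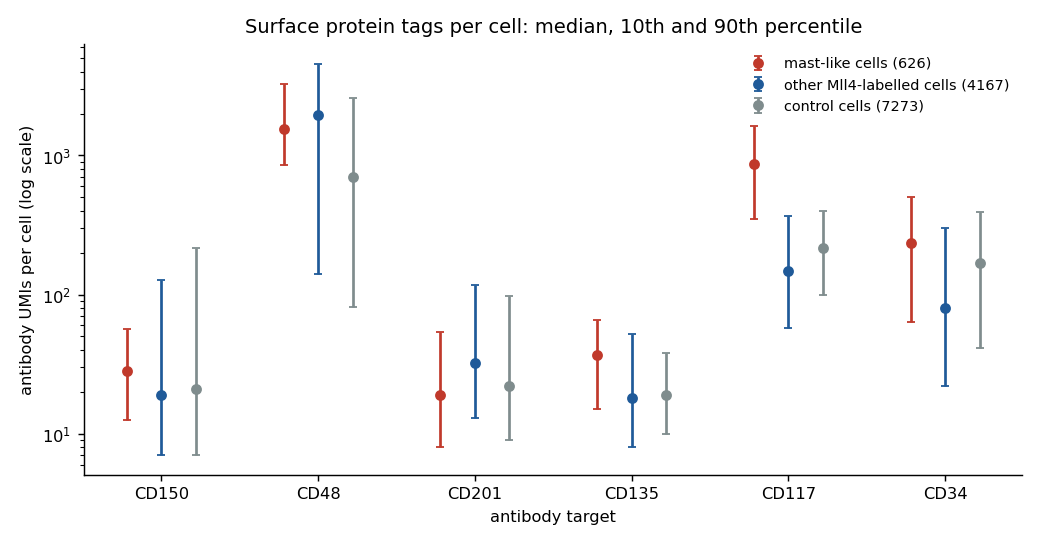
Antibody UMIs per cell (log axis) for 6 surface proteins, with the median as a point and the 10th to 90th percentile as a bar, in mast-like, other Mll4-labelled and control cells. CD117 is the target whose bar for mast-like cells (349.5 to 1638) overlaps least with that of the other cells.

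The mast-like cells differed among themselves in Mcpt4 and Tpsb2. Mcpt4 was at 0 UMIs in 295 cells and at 10 or more in 263, with 68 between, and Tpsb2 was at 0 in 240, at 10 or more in 295 and between in 91. With a split at 10 UMIs, chosen after the values were seen, 175 cells had both, 88 Mcpt4 alone, 120 Tpsb2 alone and 243 neither. Median UMIs were 4259, 5519, 5038.5 and 6869 in that order. Both genes belong to the rule, and the median rule gene share also differed, at 4.47%, 2.57%, 2.23% and 0.918% in that order. The part of rule gene share in the differences between the sets was not tested.

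Hdc was higher where Tpsb2 was, at 1025 CPM in cells with both, 917 with Tpsb2 alone, 414 with Mcpt4 alone and 369 with neither. Mrgprb2 was at 379, 517, 236 and 180 CPM in the same order, and Tpsg1 at 190, 343, 39.8 and 29.1. Tpsg1 starts at 25369273 on chromosome 17, next to the end of Tpsb2 at 25369098 and on the same strand. Whether reads of Tpsb2 entered the Tpsg1 counts was not tested. Mcpt8 was lowest in cells with both (129 CPM) and highest in cells with neither (506), with 374 and 201 between. Median CD117 counts differed little between the 4 sets, at 828, 887.5, 912 and 889.

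**Figure D4:**
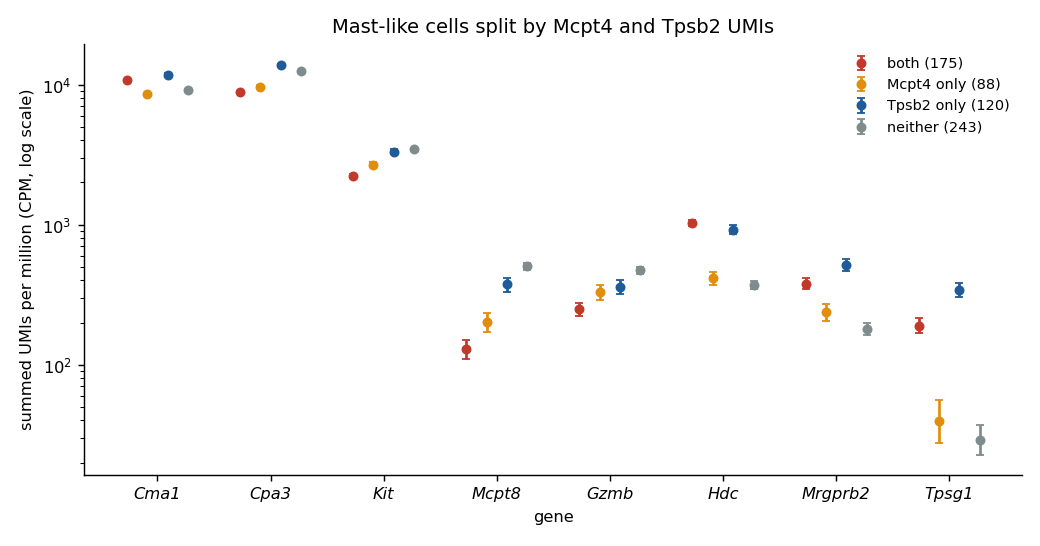
Summed CPM (log axis) of 8 genes in mast-like cells with at least 10 UMIs of both Mcpt4 and Tpsb2, of 1 of them, or of neither, with exact Poisson 95% intervals. Tpsg1 and Hdc are high where Tpsb2 is, and Mcpt8 is highest (506 CPM) in cells with neither.

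The cells were also put in order of their rule gene share and divided into 3 sets of 209, 209 and 208, here low, middle and high. The low set had a median of 8342 UMIs and the high set 4028. The other proteases summed to 9633 CPM in the low set, 20601 in the middle and 20432 in the high set. Hdc was at 276, 729 and 1569 CPM, Mrgprb2 at 130, 410 and 616, and Tpsg1 at 36.5, 171 and 299. Mcpt8 was at 360, 475 and 82.8 CPM. The dendritic list summed to 5421, 2330 and 576 CPM and the granulocyte-monocyte progenitor list to 5967, 3437 and 3529. The progenitor list holds Ctsg, also on the protease list, which was at 1590, 2526 and 2627 CPM. Of its 7 genes at the CPM minimum, 2, Ctsg and Gfi1, were higher in the high than in the low set. Mpo was at 1558, 257 and 262 CPM and Elane at 867, 99.5 and 133. Mitosis genes summed to 867, 194 and 176 CPM. The part of mixed droplets in the low set was not tested. Scrublet placed 33 mast-like cells (5.27%) and 151 other cells (3.62%) among the highest doublet scores.

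Transcripts of the 3 rule genes were also seen outside the mast-like cells, in the Mll4-labelled library only among kept non-members. There, 2202 of 4167 cells (52.8%, median depth 24627 UMIs) had at least 1 such UMI, and 12.5% of 4100 (11.5 to 13.6) after thinning to 3000. The non-members of the control, Mll3-labelled and Mll3/4-labelled libraries, 7273, 6100 and 4748 cells, had 0, which by the same limit allows shares of up to 0.0413%, 0.0493% and 0.0636%. Cma1, Mcpt4 and Tpsb2 made up 57.1%, 27.7% and 15.3% of these UMIs in mast-like cells and 59.2%, 24.6% and 16.2% in other cells with a share under 0.1%. The part of free RNA in the low shares was not tested.

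Cells with mast cell genes that stayed below the threshold of the rule were counted as non-members in which Cpa3, Ms4a2 and Fcer1a were at least 0.05% of UMIs. There were 584 in the Mll4-labelled library (14.01% of non-members), 36 in the control (0.495%), 22 in the Mll3-labelled and 2 in the Mll3/4-labelled library. Of the 584 cells, 348 held at least 1 UMI of the rule genes. The 584 cells had a median of 26804.5 UMIs, with Kit at 362 CPM, Mcpt8 at 178 and Mpo, a granulocyte progenitor enzyme, at 7754. Their median CD117 count was 123, against 869 in mast-like cells.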

How the data were processed

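The deposited values were raw counts of UMIs and antibody tags per barcode, for 32285 genes and 6 antibodies in 4 libraries. Per the submitters' processing notes, Cell Ranger 6.1.1 and mm10 were used; the filter that chose the deposited barcodes is not given in the sources used here. A barcode was kept when it had 1000 or more genes and no more than 10% of its UMIs were mitochondrial. The cells, gene lists and comparisons were chosen with earlier results of these data known. Counts were summed over cells, scaled to CPM, and compared as log2 ratios after adding 0.5 UMIs, for genes at 20 CPM in 1 of both sums. Intervals are at 95%: exact Poisson for sums, Clopper-Pearson for shares and conditional binomial for ratios. The ratio and its interval were tested on simulated Poisson sums without variation between cells, so the intervals do not cover such variation. A first condition on the interval was not met for a class of genes. It was replaced by coverage over all tested genes after that. With 1 library per genotype there was no test and no p-value. Named genes were all genes of 28 lists and the 15 highest and 10 lowest ratios at 100 CPM, leaving out mitochondrial, ribosomal, haemoglobin, immunoglobulin, sex-linked and unnamed genes. Antibody counts were also taken as centred log ratios (natural log of count + 1). Doublets were not removed in the main values; Scrublet in scanpy 1.11.5 scored them for an alternative. Other tools were Python 3.11.15, scipy 1.17.1 and edgeR 4.0.16 (TMM factors only). Other thresholds, filters, scalings and comparison cells were tried.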

Additional observations from a re-analysis of the deposited data

Results flagged for a closer look

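Barcodes outside the cell filter also carried the rule transcripts. In the Mll4-labelled library, 480 of 2909 barcodes that failed the filter (16.5%, exact interval 15.2 to 17.9) had at least 0.2% of their UMIs from Cma1, Mcpt4 and Tpsb2, against 0 of 408 in the control. Of these, 414 failed on genes alone, 11 on mitochondrial UMIs alone and 55 on both. Their median was 708 UMIs and 434 genes, and their median CD117 count was 20, against 18 in the 2429 other failing barcodes. Their median rule gene share was 0.344%, so at this depth the share rested on very few molecules. Mast-like cells had a median of 120 UMIs of the rule genes. The part of free RNA or broken cells in these barcodes was not tested.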

How the results depend on the processing

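The mast-like share of the Mll4-labelled library was 11.5% at a rule share of 0.5%, 14.2% with 500 genes and 20% mitochondrial UMIs allowed, and 7.77% with 2000 genes and 5%. No setting gave over 1 mast-like cell in any other library. The count of genes 4-fold higher stayed within 1.5 times of 344 except with control cells as comparison (547), a 100 CPM minimum (158) and no minimum (15042). The count 4-fold lower, 79, moved with most settings: 22 and 215 at rule shares of 0.1% and 0.5%, 24 with 2000 genes and 5%, 238 without the highest doublet scores, 124 with TMM, 121 with median of ratios, 155 without mitochondrial and ribosomal protein genes, 264 with equal weight per cell, 51 with 5 UMIs added, 196 at the depth of members, 210 against control, 179, 20 and 730 at minimums of 5, 100 and 0 CPM, and 38 in members with at least 5000 UMIs (chosen after seeing the data). The median log2 ratio of the mast lists was 1.75 and 2.02 at rule shares of 0.1% and 0.5%, 1.75 with 2000 genes and 5%, 2.13 without the highest doublet scores, 1.67 with TMM, 1.75 with median of ratios, 1.49 with equal weight, 0.90 at the depth of members, 2.93 against control and 2.59 at 100 CPM.

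Among the named genes, 78 of 197 had the other sign against other cells at the depth of members, 28 of 207 against control cells and 28 of 212 with equal weight per cell. Of those past 4-fold in the main values, the following turned. Against other cells at the depth of members, log2 ratios were 0.88 for Ube2c, 0.66 for Cenpf, 0.36 for Camp, 1.15 for Hist1h3c, 0.59 for Itga1, 1.20 for Prc1, 1.18 for Cdk1, 0.38 for Lcn2, 1.49 for Nusap1, 1.08 for Tpx2, 1.79 for Ms4a3, -0.25 for Fcer1g and -0.58 for Id2, and list medians were 0.37 for neutrophil, 1.49 for mitosis and -0.30 for cytokine genes. Against control cells they were 0.82 for S100a8, 0.59 for S100a9, 5.26 for Itga1, 0.15 for Lcn2, 1.92 for Ms4a3 and 0.70 for the neutrophil list. Pf4 was -1.62 at a rule share of 0.5% and -0.41 with equal weight. All members were kept against other cells at the depth of members and against control cells, whatever their own depth. In the members, 1 cell of 46215 UMIs held 78.7% of the Camp, 87.6% of the Lcn2, 66.6% of the S100a8 and 78.8% of the S100a9 UMIs. The cause of the turns was not tested. The CD117 difference (natural log) was 1.25 centred, 1.76 uncentred, 1.62 per 1000 antibody counts and 1.21 with 2000 genes and 5%. CD150 was -0.21 centred, 0.37 uncentred and 0.12 per 1000. Rule transcripts outside members were in 7.32% of other cells thinned to 1500 UMIs and in 19.3% thinned to 6000. Non-members with Cpa3, Ms4a2 and Fcer1a were 22.2% at 0.02% of UMIs and 7.94% at 0.1%. No paired analysis was possible because each genotype has 1 library.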
